A study of Mus musculus with 8 samples.

Results

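Reactive astrocyte genes were examined as a set of 10 genes: Gfap, Vim, Serpina3n, Cd44, Stat3, S100b, Osmr, Aldoc, Thbs4 and Lcn2. They were chosen by symbol, with no limit on a measured value, and were 10 of 30211 features in single-nucleus RNA-seq of mouse hippocampus. The data covered 8 libraries, each from 1 C57BL/6 mouse. WT (3 mice) and GKO (3 mice, GSAP -/-) were sampled at 7 months of age, and J20;WT (1 mouse) and J20;GKO (1 mouse) at 6 months. GSAP is γ-secretase activating protein, and GKO mice lacked it in all cells, since the deletion was made with a CMV-driven Cre. J20 mice carry human APP with the Swedish and Indiana mutations under the PDGFB promoter, and the transgene sits in the Zbtb20 locus. The J20 mice were thus few, younger than the rest and of both Gsap genotypes, so transgene and age cannot be told apart. J20;WT was in addition the only library with its date in the deposited file names.

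Reactive astrocytes are astrocytes that have changed their gene expression in response to injury, infection, amyloid or other disturbance. Gfap and Vim encode the intermediate filaments that rise in most such states. Oncostatin M and related cytokines act through receptors such as Osmr and the shared subunit gp130 (encoded by Il6st), which activate JAK kinases and the transcription factor Stat3, a known regulator of Gfap. Serpina3n is a secreted serine protease inhibitor and Lcn2 a secreted lipocalin, and both are used as markers of reactive astrocytes. Cd44 is a hyaluronan receptor and Thbs4 a secreted matrix protein. S100b, a calcium-binding protein, and Aldoc, a glycolytic aldolase, are made by astrocytes without any insult.

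By the GENCODE M21 annotation of GRCm38, the assembly also called mm10, Gfap lies on the minus strand of chr11:102887336-102900912, with Stat3 at chr11:100885098-100939540 on the same strand. Aldoc occupies chr11:78322968-78327781 on the plus strand. Vim lies at chr2:13573927-13582826 on the plus strand, and Cd44 at chr2:102811141-102901665 and Lcn2 at chr2:32384633-32388252 on the minus strand. S100b lies at chr10:76253853-76261159 and Serpina3n at chr12:104406729-104414329, both on the plus strand. Thbs4 at chr13:92751590-92794818 and Osmr at chr15:6813577-6874969 are on the minus strand. Reads were counted to whole genes.

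The promoters of Gfap, Aldoc and Vim are shown because Gfap and Vim are the filament genes and Aldoc was the only other member with the letters searched for in its window. Each is the RefSeq sequence of GRCm38.p6 from 250 bases before to 30 bases after an annotated start, read 5′ to 3′ on the gene's strand. Capitals mark the letters TTCNNNGAA, which reads the same on both strands and is the core of sites bound by STAT factors.
Gfap, chr11:102897171-102897450, minus strand: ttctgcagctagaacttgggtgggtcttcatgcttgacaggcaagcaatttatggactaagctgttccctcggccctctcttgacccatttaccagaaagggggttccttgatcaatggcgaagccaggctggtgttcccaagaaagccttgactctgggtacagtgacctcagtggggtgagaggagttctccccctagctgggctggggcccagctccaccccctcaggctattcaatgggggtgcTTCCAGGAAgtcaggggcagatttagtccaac
Aldoc, chr11:78323948-78324227, plus strand: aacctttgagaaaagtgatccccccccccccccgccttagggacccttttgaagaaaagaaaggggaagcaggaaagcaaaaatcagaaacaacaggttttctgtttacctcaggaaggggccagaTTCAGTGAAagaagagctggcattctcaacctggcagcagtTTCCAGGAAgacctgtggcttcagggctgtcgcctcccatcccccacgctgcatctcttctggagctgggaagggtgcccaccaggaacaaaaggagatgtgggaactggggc
Vim, chr2:13574061-13574340, plus strand: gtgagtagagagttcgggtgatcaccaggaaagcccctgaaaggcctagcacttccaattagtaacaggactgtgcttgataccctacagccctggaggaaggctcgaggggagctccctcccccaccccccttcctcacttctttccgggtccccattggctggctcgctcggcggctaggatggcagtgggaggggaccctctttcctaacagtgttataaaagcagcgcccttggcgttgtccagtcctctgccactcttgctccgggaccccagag
All 10 members had a promoter entry, with 11 windows in all because Aldoc had 2 starts. The letters were present in 2 of the 11, with 1 match in Gfap and 2 in the Aldoc window shown. Of all 32851 windows of this length, 7.83% held them, and a match is a description of the letters only.

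The 8 libraries held 2731 to 5252 nuclei after the study's filters, with median depths of 4579 to 6438.5 UMIs (unique molecular identifiers, 1 per captured RNA). Xist was at 2135 to 2410 CPM (UMI counts scaled to 1 common total in every sum) in WT 1, GKO 1 and J20;GKO and at 1.68 to 3.00 CPM in the other 5, so the sexes were unevenly spread. App, which also counts transgene reads where these align, was at 463 to 550 CPM in the 6 mice without J20, 1096 CPM in J20;WT and 1250 CPM in J20;GKO. Zbtb20, the locus of the transgene, was at 1724 to 2213 CPM, 1440 CPM and 1166 CPM in the same order. In astrocytes alone it was at 2698 to 3634 CPM, 2447 CPM and 2570 CPM, and its part in the values of the members was not tested. Gsap in astrocytes ranged from 113 to 159 CPM in WT and from 95.2 to 168 CPM in GKO, and tags outside the deleted part do not check the knockout. Transthyretin (Ttr), the main transcript of choroid plexus, ranged from 2.27 to 1606 CPM across whole libraries. No pair of libraries shared more than 21 barcodes.

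Astrocytes were gated per nucleus on 13 markers that include no member, such as Slc1a2, Aqp4 and Gja1, and 2949 of 32041 nuclei passed. The typical gated astrocyte carried 11 of the 13 markers and scored 8.18 times higher for astrocytes than for the next class. Within a factor of 1.2 of the limit of 1.5 times lay 116 nuclei inside and 161 outside. Astrocytes made up 9.58%, 9.53% and 9.45% of nuclei in WT 1 to 3 and 8.46%, 9.73% and 11.9% in GKO 1 to 3. The shares were 7.08% for J20;WT and 5.75% for J20;GKO. Both J20 mice thus lay below all 6 others, by 3.36 percentage points on average. The exact permutation test gave p = 0.0714 (two-sided, 2 against 6 mice), which is the smallest p this design allows. In J20;WT 20.2% of nuclei were not gated, with a median of 1059.5 UMIs, against 6.85% to 14.8% elsewhere, and the part of this in the share was not tested. Among gated nuclei alone the difference was 3.37 percentage points.

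The members were sorted over the 7 classes with at least 20 nuclei in every mouse. They fell into genes nearly restricted to astrocytes, genes that astrocytes shared with vascular or immune nuclei, and S100b, highest in oligodendrocyte precursor cells. Serpina3n, Cd44 and Lcn2 were low in all 7 classes. Of the 9 members with enough counts, 8 were higher in astrocytes than in all other gated nuclei, beside 27.3% of the 18429 genes tested that were called higher (edgeR quasi-likelihood test with mouse as block, Benjamini-Hochberg adjusted p under 0.05 and a log2 difference over 0.3, n = 8 mice). Of all genes tested 61.3% differed in either direction, so the direction and size of the members are more informative than their count.

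Gfap stood at 377 ± 82.2 CPM in astrocytes (SD, n = 8 mice) and at 12.6 CPM or less in each of the other 6 classes with at least 20 nuclei in every mouse. The lowest astrocyte value, 202 CPM, was above the highest value of any of these classes in any mouse, 32.4 CPM. Its log2 difference from other gated nuclei was 6.43 (SE 0.14, edgeR adjusted p = 7.14e-14). Thbs4 had the same pattern, with 149 ± 34.7 CPM in astrocytes and at most 2.63 CPM on average elsewhere (log2 difference 6.76, SE 0.20, adjusted p = 2.33e-10). Aldoc was at 409 ± 76.8 CPM in astrocytes and next at 38.3 CPM in microglia (log2 difference 4.88, SE 0.15, adjusted p = 1.95e-11). Among these 7 classes, each of the 3 genes separated astrocytes from the next class with no overlap between mice. Endothelial nuclei, too few to be ranked, ranged from 0 to 245 CPM for Gfap. The highest of these values, from 7 UMIs in GKO 3, was above the 202 CPM of its astrocytes. In endothelial nuclei Aldoc ranged from 0 to 210 CPM, and Thbs4 had no UMI.

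Vim, Osmr and Stat3 were shared with vascular or immune nuclei. Vim averaged 82.2 CPM in astrocytes and 58.6 CPM in mural or fibroblast nuclei, and the values of these neighbours overlapped, with astrocytes higher in 6 of 8 mice. Osmr averaged 64.0 CPM in mural or fibroblast nuclei and 17.9 CPM in astrocytes, with no overlap, and no UMI was seen in OPC (oligodendrocyte precursor cells) or microglia. Stat3 was highest in microglia at 176 CPM, followed by mural or fibroblast nuclei at 143 CPM, astrocytes at 104 CPM and OPC at 91.3 CPM. Neighbours in this order overlapped, while OPC and the next class, oligodendrocytes at 55.3 CPM, did not. Excitatory neurons had the lowest Stat3 level, 25.8 CPM. Against all other nuclei the log2 difference was 5.07 for Vim, 4.74 for Osmr and 1.53 for Stat3, each past the threshold. Only 66 endothelial nuclei were found in the 8 libraries, in which Vim had 55 UMIs, Stat3 30 and Osmr 20. In WT 1, with 21 of these nuclei, they were at 425, 206 and 123 CPM, above the astrocyte means. Over all mice the endothelial values ranged from 0 to 435 CPM for Vim, 35.0 to 291 CPM for Stat3 and 0 to 198 CPM for Osmr. Endothelial nuclei were too few to be ranked with the other classes.

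S100b followed the oligodendrocyte lineage, with 123 CPM in OPC, 105 CPM in oligodendrocytes and 74.6 CPM in astrocytes. These neighbours overlapped, although OPC exceeded oligodendrocytes in 7 mice and oligodendrocytes exceeded astrocytes in 8. Serpina3n was low everywhere, with 10.6 CPM in OPC, 7.98 CPM in astrocytes and 6.32 CPM in excitatory neurons, all overlapping. Its log2 difference between astrocytes and the rest, 0.52 (SE 0.23), missed the threshold (edgeR adjusted p = 0.0579). Cd44 averaged 9.36 CPM in astrocytes and 5.75 CPM in microglia, with overlap, and its log2 difference from all other nuclei was 1.94 (SE 0.28, adjusted p = 5.55e-06).

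Lcn2 was close to absent. Astrocytes of WT 1, GKO 2 and GKO 3 held 1, 4 and 1 UMIs, and the other 5 mice, both J20 mice among them, held 0. With 3 counts as the limit that a count of 0 allows, the level could be up to 3.17 CPM in J20;WT and 3.89 CPM in J20;GKO. Most Lcn2 UMIs came from endothelial nuclei, with 19 UMIs in WT 3 and 3 in GKO 3, each from 1 nucleus. Lcn2 was therefore in none of the edgeR fits. Its share of astrocytes with a UMI, not thinned, was compared by exact permutation over mice. The exact permutation test gave two-sided p = 0.714 for J20 against the rest (2 against 6 mice). For GKO against WT (3 against 3 mice) the exact permutation test gave two-sided p = 0.70. The smallest p these exact permutation tests allow is 0.0714 and 0.10 in the same order. Neither exact permutation test could thus pass a limit of 0.05, and no conclusion is drawn from them.

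**Figure D1:**
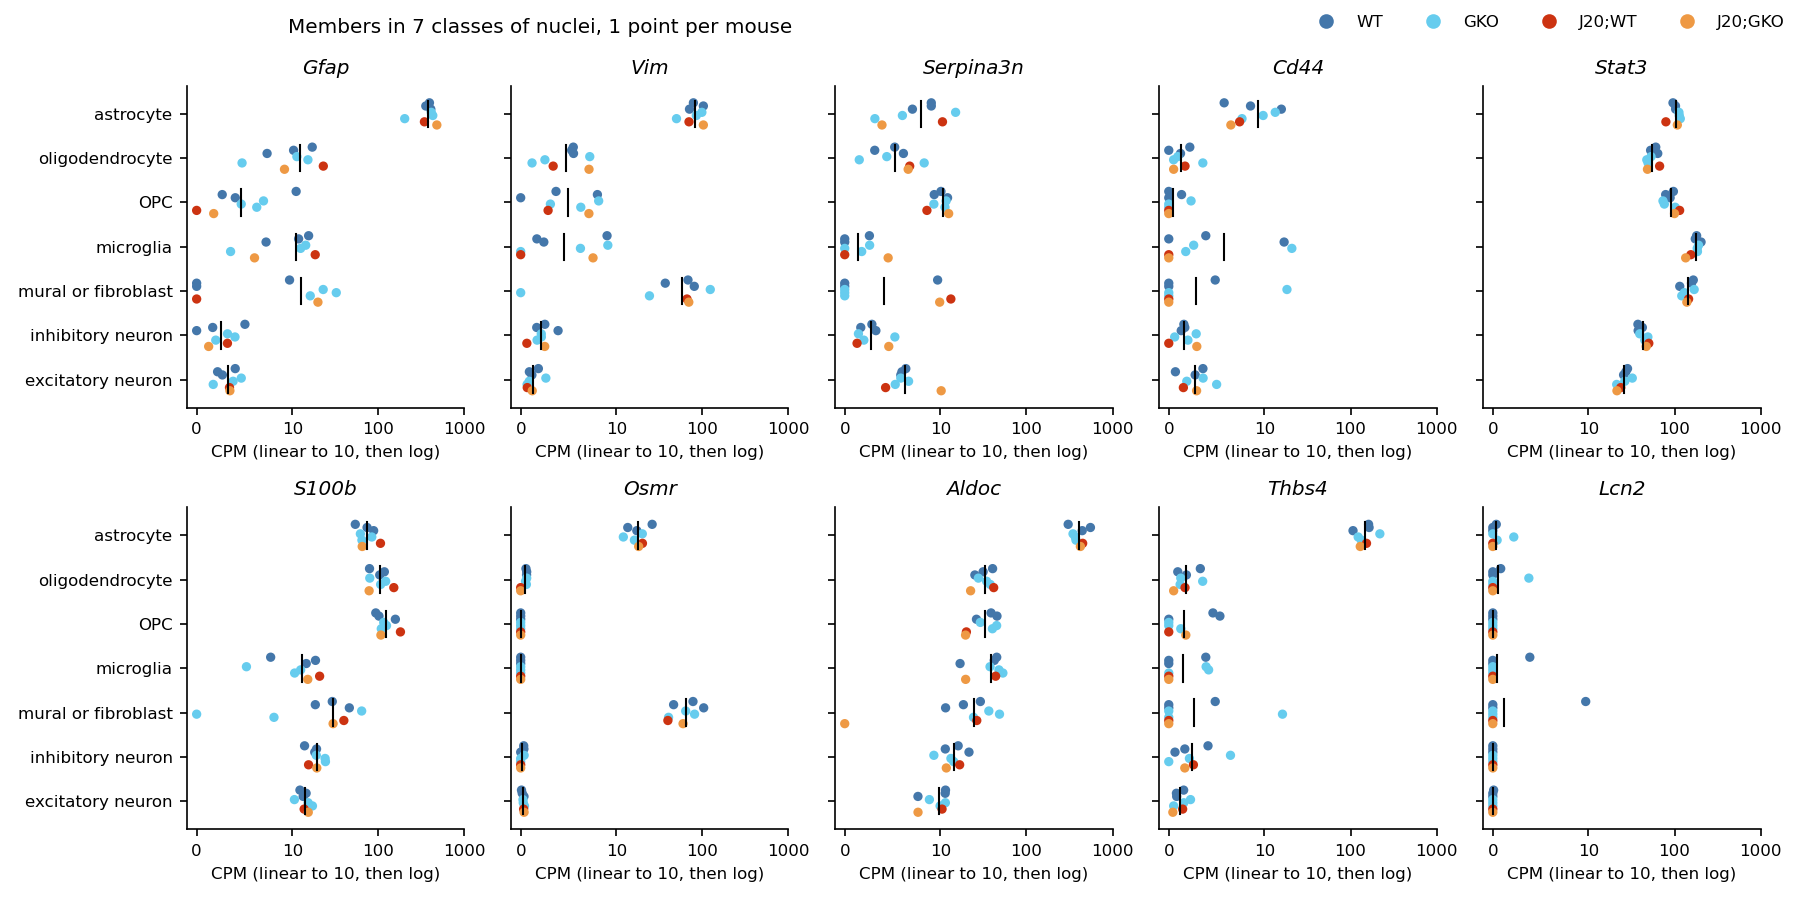
CPM (x axis, linear to 10 and then logarithmic) of each member in the 7 classes of nuclei with at least 20 nuclei per mouse (y axis), with 1 point per mouse coloured by group and a black bar at the mean of 8 mice. Gfap, Thbs4 and Aldoc sit apart in astrocytes, Osmr is higher in mural or fibroblast nuclei at a mean of 64.0, S100b is highest in OPC and Lcn2 stays near 0.

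The genes outside the set whose levels followed a member most closely over the 7 classes were ranked by Pearson's r of mean log2(CPM + 1), as a description over 7 points that share libraries. For Gfap these were Lgi4 (r = 0.996), Acot11 (0.993) and Mt2 (0.988). For Vim they were Cyp2d22, Gja1 and Ezr (0.989 to 0.987 in this order), and for Aldoc Lgi4, Retsat and Fads1 (0.969 to 0.967). Thbs4 was followed by Gm4491, Aqp9 and C030018K13Rik (0.996 to 0.995), and Osmr by Slc2a4, Slc7a11 and Nat8f7 (0.998 to 0.996). Stat3 was nearest to Zkscan3, Tram2 and Rnf213 (0.994 to 0.985), S100b to Cmc4, Abhd16a and Nkx2-2os (0.984 to 0.979) and Serpina3n to Mfsd8, Efna2 and Kbtbd11 (0.956 to 0.946). Cd44 and Lcn2 did not reach the mean of 10 CPM set for this ranking.

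Whether amyloid-producing mice carried more of the reactive program was asked by comparing astrocytes of the J20 mice with those of the other 6. None of the members passed the threshold. Gfap was at 392, 355 and 407 CPM in WT 1 to 3, at 411, 429 and 202 CPM in GKO 1 to 3, at 343 CPM in J20;WT and at 478 CPM in J20;GKO. J20;GKO was the highest of all 8 mice, and J20;WT lay below 5 of the 6 mice without the transgene. The log2 fold change was 0.17 (SE 0.26, 95% interval -0.40 to 0.74, edgeR adjusted p = 0.93). Without J20;GKO it was -0.20.

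Vim was at 78.5, 103 and 70.8 CPM in WT, 98.5, 85.0 and 50.0 CPM in GKO, 69.8 CPM in J20;WT and 103 CPM in J20;GKO. Both J20 values lay within the range of the others, with a log2 fold change of 0.08 (95% interval -0.52 to 0.69) that was -0.31 without J20;GKO. GKO 3 had the lowest value of both filament genes.

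For the signalling members, Stat3 was at 95.9, 103 and 103 CPM in WT, 112, 113 and 117 CPM in GKO, 79.3 CPM in J20;WT and 108 CPM in J20;GKO. Only J20;WT fell outside the range of the other groups, and the log2 fold change was -0.21 (95% interval -0.53 to 0.11). Osmr was at 26.1, 13.6 and 17.3 CPM in WT, 20.0, 12.1 and 16.2 CPM in GKO, 20.1 CPM in J20;WT and 18.2 CPM in J20;GKO. All groups overlapped, with a log2 fold change of 0.10 (95% interval -0.60 to 0.81).

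The secreted and surface members rested on few UMIs. Serpina3n was at 9.05, 9.05 and 7.08 CPM in WT, 15.0, 6.03 and 3.15 CPM in GKO, 10.6 CPM in J20;WT and 3.89 CPM in J20;GKO, where the last 2 values came from 10 and 3 UMIs. The J20 mice lay within the range of GKO, and the 95% interval of the log2 fold change ran from -1.45 to 1.13. Cd44 was at 5.79, 8.55 and 15.7 CPM in WT, 13.4, 9.87 and 7.66 CPM in GKO, 7.41 CPM in J20;WT and 6.49 CPM in J20;GKO, with an interval from -1.53 to 0.58. Thbs4 was at 162, 164 and 107 CPM in WT, 219, 123 and 133 CPM in GKO, 153 CPM in J20;WT and 129.8 CPM in J20;GKO. Both J20 mice were inside the WT range, and the log2 fold change was -0.10 (95% interval -0.64 to 0.45).

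Of the members made by resting astrocytes, S100b was at 53.9, 73.9 and 88.1 CPM in WT, 61.8, 83.9 and 64.4 CPM in GKO, 106 CPM in J20;WT and 64.9 CPM in J20;GKO. J20;WT alone exceeded the others, with a log2 fold change of 0.27 (95% interval -0.20 to 0.73) that was -0.08 without it. Aldoc was at 305, 554 and 444 CPM in WT, 347, 369 and 376 CPM in GKO, 449.6 CPM in J20;WT and 423 CPM in J20;GKO. The WT mice spanned both J20 values, and the log2 fold change was 0.13 (95% interval -0.29 to 0.55).

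**Figure D2:**
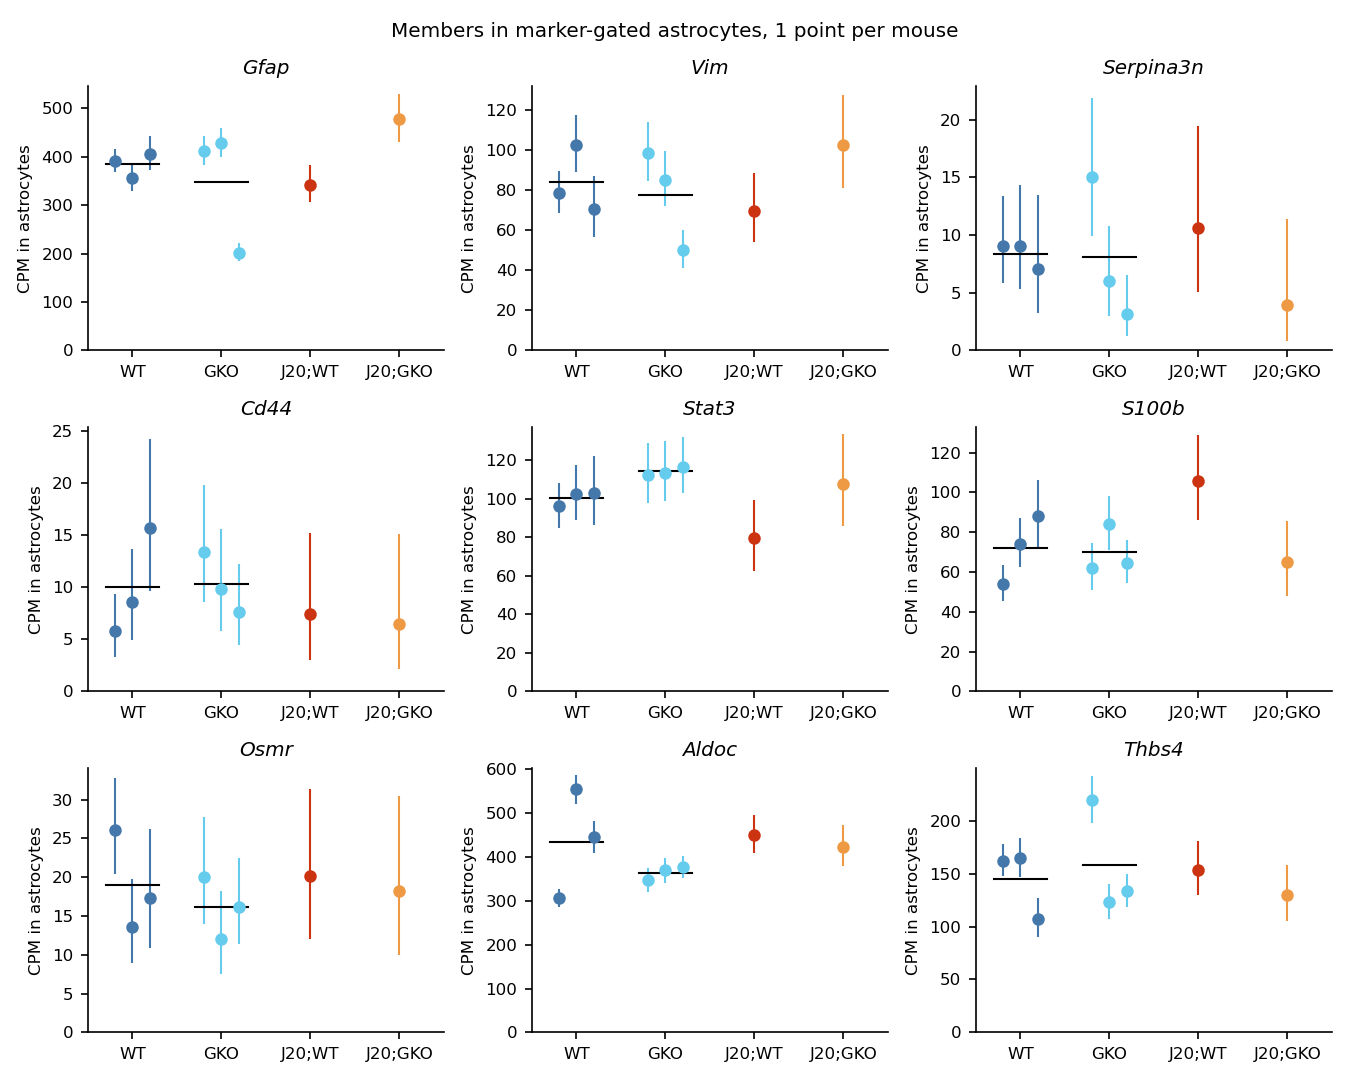
CPM in gated astrocytes (y axis, from 0) for 9 members by group (x axis), with 1 point per mouse, bars for the exact Poisson 95% interval of its UMI count and a black line at the mean of groups with 3 mice. The J20 points lie among those of WT and GKO for most members, J20;GKO is highest for Gfap at 478 and GKO 3 lowest at 202.

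Across all genes the comparison called 0 of 12689 (0%), with 806 genes (6.35%) at an unadjusted p under 0.05, among them none of the 9 members tested. App, the transgene's gene, had a log2 fold change of 1.09 in astrocytes (SE 0.18) and also missed the threshold (edgeR adjusted p = 0.147). The median log2 fold change of the members was 0.08, beside -0.01 over all genes. DESeq2 called 6 genes, no filter on low counts gave 59, and a term for the date in the deposited file names gave 20, but no member was among them. With that date term, which leaves only J20;GKO to set against mice of its own date, the log2 fold change was 0.57 for Gfap and 0.51 for Vim, with adjusted p of 0.86 for both.

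The wider reactive lists held no called gene, as no gene at all was called in this comparison. They are not independent of the members, since they hold Gfap, Vim, Serpina3n, Cd44, Osmr and Stat3. Of 13 pan-reactive genes 8 could be tested, with a median log2 fold change of 0.10. The lowest unadjusted p was 0.157, for Cp, the copper-binding ferroxidase ceruloplasmin (log2 fold change 0.49). Of 12 genes induced by inflammation (the A1 list) 6 were tested with 2 above 0, and of 13 genes induced by ischaemia (the A2 list) only 3 were tested. In the last, S100a10, an annexin partner, had a log2 fold change of 0.96 (unadjusted p = 0.00771, edgeR adjusted p = 0.758). S100a10 ranged from 8.35 to 16.7 CPM without the transgene and was at 30.7 CPM in J20;WT and 18.2 CPM in J20;GKO, so the groups did not overlap. The smallest exact permutation p for 2 against 6 mice is 0.0714, and the share of all genes without overlap was not counted.

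Among 18 astrocyte genes linked to amyloid models, 11 were above 0 with a median of 0.05. C4b, a complement component, was at 147 to 240.0 CPM in the 6 mice without J20 and lower in both J20 mice, at 139.6 and 117 CPM. Its log2 fold change was -0.55 (SE 0.20, unadjusted p = 0.0171, adjusted p = 0.760). How many of all genes were lowest in both J20 mice was not counted. In the gp130, JAK and STAT list 3 of 14 tested genes were above 0, with a median of -0.18. Pias3, an inhibitor of Stat3, had a log2 fold change of -0.68 (unadjusted p = 0.0482) and Jak1 one of -0.30 (0.056). Of 16 homeostatic genes 3 had an unadjusted p under 0.05. These were Glul, the glutamine synthetase (-0.36), the serine transporter gene Slc7a10 (0.36) and Glt1d1 (-1.19), each with an adjusted p of 0.760. Slc7a10 is also a gate marker. The intermediate filament list had 10 tested genes, a median of 0.08 and no gene at an unadjusted p under 0.05.

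Summed markers of 3 other classes within gated astrocytes did not overlap between the J20 mice and the rest. Separation of 2 against 6 mice can reach no exact permutation p below 0.0714, and these sums were not tested. The summed 12 excitatory neuron markers were at 395 and 462 CPM in the J20 mice against 485 to 813 CPM in the other 6, and the 13 mural or fibroblast markers at 267 and 329 CPM against 162 to 254 CPM. The 12 oligodendrocyte markers were at 279 and 284 CPM against 286 to 525 CPM. The 13 ependymal or choroid plexus markers, which include Ttr, ranged from 35.1 to 2170 CPM in J20 and from 53.7 to 1834 CPM in the rest. The astrocyte markers themselves were at 26131 to 27238 CPM in J20 and 23935 to 26131 CPM in the rest. Their part in the values of the members was not tested.

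GSAP loss was examined in the 6 mice without the transgene. None of the 9 members tested, and 0 of 12144 genes (0%), passed the threshold in astrocytes, and 252 genes (2.08%), none of them a member, had an unadjusted p under 0.05. DESeq2 also called 0 genes. The log2 fold change was -0.14 for Gfap (95% interval -0.69 to 0.41) and turned to 0.13 without GKO 3. Stat3, the transcription factor, was higher in each of the 3 GKO mice than in each WT mouse by CPM, with a log2 fold change of 0.20 (SE 0.13, 95% interval -0.09 to 0.48, edgeR adjusted p = 0.9998). Separation of 3 against 3 mice can reach no exact permutation p below 0.10, and its share over all genes was not counted. Aldoc had a log2 fold change of -0.25 and Osmr one of -0.26, with intervals that include 0, and the remaining members lay between -0.12 and 0.14.

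No gene of the wider lists, which share genes with the members, passed the threshold, as no gene at all did in this comparison. In the amyloid-model list 4 of 18 genes were above 0 with a median of -0.11, and only Fabp7, a fatty acid binding protein, had an unadjusted p under 0.05 (log2 fold change -0.41, unadjusted p = 0.0335). H2-D1, a class I histocompatibility gene of the A1 list, had a log2 fold change of -0.49 (unadjusted p = 0.0243), and Nefl, the neurofilament light chain in the intermediate filament list, one of -0.66 (unadjusted p = 0.00328). All had an edgeR adjusted p of 0.9998. The pan-reactive genes tested had a median of -0.11 with 3 of 8 above 0. The signalling list had 8 of 13 and the homeostatic list 8 of 16 above 0, with medians of 0.03 and 0.01. In the A2 list only Stat3 and S100a10 could be tested.

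**Figure D3:**
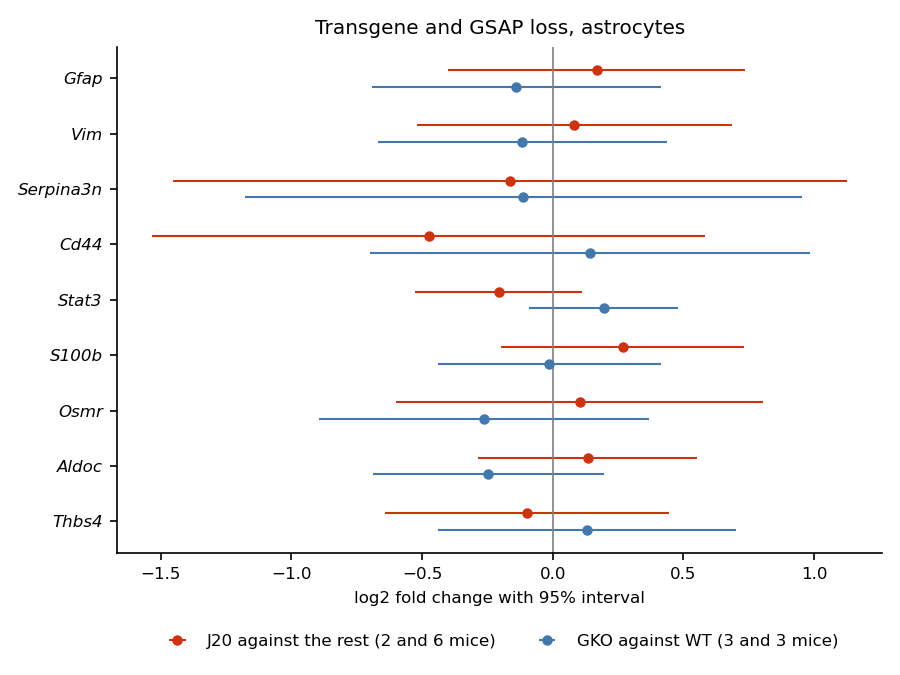
Log2 fold change (x axis) with its 95% interval from the edgeR fit for 9 members (y axis) in astrocytes, in red for J20 against the rest (2 and 6 mice) and in blue for GKO against WT (3 and 3 mice). All 18 intervals include 0, and they are widest for Serpina3n and Cd44.

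In the other 6 classes the J20 comparison allowed 27 tests of members, of which 0 passed the threshold, beside 0.424% of 17693 genes called in excitatory neurons, 0.0249% in oligodendrocytes, 0.0201% in OPC and 0% in microglia, mural or fibroblast nuclei and inhibitory neurons. DESeq2 called 0 member tests as well. Only 2 had an unadjusted p under 0.05, beside 8.23% of all genes in oligodendrocytes, 6.68% in OPC, 6.08% in microglia, 6.08% in mural or fibroblast nuclei, 6.82% in inhibitory and 13.5% in excitatory neurons. Aldoc in OPC was at 26.3 to 45.4 CPM in the 6 mice without J20 and at 20.1 and 19.6 CPM in J20;WT and J20;GKO (log2 fold change -0.94, SE 0.35, unadjusted p = 0.0135, edgeR adjusted p = 0.747). The J20 values came from 7 and 11 UMIs. Stat3 in microglia was at 174 to 203 CPM without J20 and at 155 CPM in J20;WT and 135 CPM in J20;GKO (log2 fold change -0.35, SE 0.16, unadjusted p = 0.0453, adjusted p = 0.801). Both J20 mice were below all others in each case. These 2 tests were picked from the 27 by their p. With 2 against 6 mice no exact permutation p can fall below 0.0714, and the share of genes so separated was not counted. For GKO against WT, 0 of 23 member tests passed with no gene called in any of these classes (0%), and DESeq2 called 0 member tests. None had an unadjusted p under 0.05, beside 1.51% of all genes in oligodendrocytes, 3.08% in OPC, 2.62% in microglia, 2.7% in mural or fibroblast nuclei, 1.09% in inhibitory and 1.21% in excitatory neurons.

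J20;GKO and J20;WT are 1 mouse each. Their libraries also differ in file date, in Xist (2410 CPM in J20;GKO and 3.00 CPM in J20;WT) and in Ttr (2.27 and 1606 CPM). Gsap genotype cannot be told apart from these differences. In a fit of all 4 groups, which assumes that these 2 mice vary like the WT and GKO mice, none of the 9 members and 0 of 13386 genes (0%) passed the threshold between them, with 910 genes (6.8%) at an unadjusted p under 0.05, none of them a member. DESeq2 called 3 genes, and no member. Stat3 had the lowest p of the members (log2 fold change 0.50, SE 0.25, 95% interval -0.05 to 1.05, edgeR adjusted p = 0.747). This fit was added after the data had been seen. The ratios that follow carry intervals for counting error only. Gfap had 368 UMIs in astrocytes of J20;GKO and 324 in J20;WT, a log2 ratio of 0.48 on the CPM scale (95% interval 0.26 to 0.70). Mice of one genotype differed in Gfap by up to 1.08 on the same scale. The log2 ratio was 0.55 for Vim (95% interval 0.06 to 1.05) and -0.70 for S100b (-1.22 to -0.20), and pairs of 1 genotype reached 0.98 and 0.71. For Stat3 the ratio was 0.44 (-0.03 to 0.91), more than the 0.11 seen between mice of one genotype. For Serpina3n, Cd44, Osmr, Aldoc and Thbs4 the intervals included 0.

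Gfap was unevenly spread over astrocytes. With every nucleus thinned to 1500 UMIs, 32.0%, 25.7% and 35.8% of WT astrocytes, 34.7%, 29.5% and 25.7% of GKO astrocytes, 29.3% of J20;WT astrocytes and 36.6% of J20;GKO astrocytes held a Gfap UMI. Excitatory neurons, which should lack it, gave 0.279% to 0.90%. Without thinning the astrocyte shares were 40.7% to 62.4%, at median depths of 3224 to 4730.5 UMIs. The J20 mice exceeded the rest by 2.36 percentage points on average, less than the SD of 4.37 between the 6 others (exact permutation test, two-sided p = 0.571). GKO and WT differed by -1.21 percentage points (exact p = 0.70, smallest possible 0.10). The 10% of astrocytes with the most Gfap UMIs held 46.2% of all Gfap UMIs in J20;GKO and 51.7% to 63.0% in the other mice, and a single nucleus of WT 3 held 123.

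**Figure D4:**
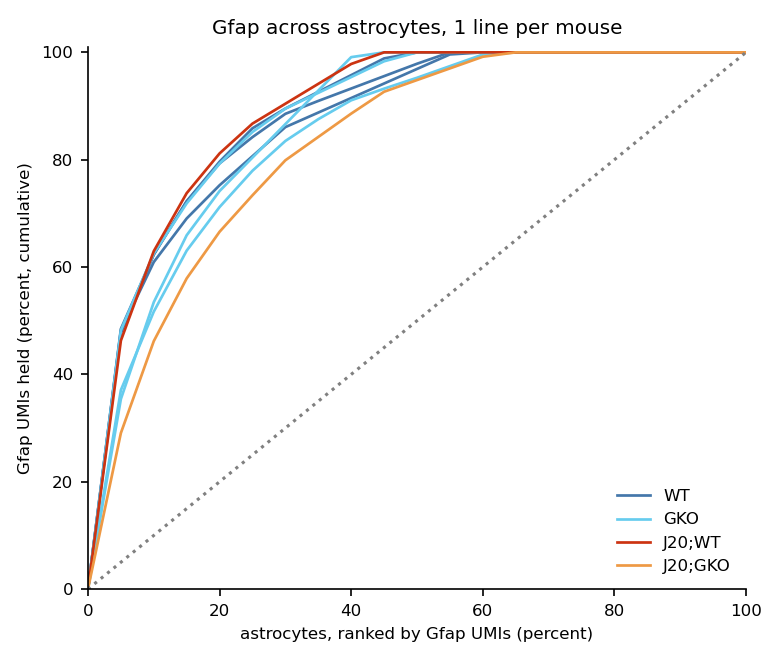
Share of all Gfap UMIs held (y axis, percent, cumulative) by astrocytes ranked from the most to the fewest Gfap UMIs (x axis, percent), with 1 line per mouse coloured by group and a dotted line for an even spread. The first 10% of astrocytes hold between 46.2% and 63.0% of the UMIs, with J20;GKO lowest.

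Of the other members, S100b was detected in 14.4% and 12.4% of J20;WT and J20;GKO astrocytes and in 7.99% to 14.4% of the others (difference 3.91 percentage points, exact p = 0.143). Vim was detected in 5.86% and 9.15% against 7.41% to 14.9%, Aldoc in 41.4% and 49.0% against 35.0% to 53.5%, and Stat3 in 12.2% and 16.3% against 13.6% to 17.3%. Thbs4 was detected in 11.7% and 12.4% against 8.23% to 18.1%. Cd44 was detected in 0.451% and 0% of J20 astrocytes, where 0 of 153 nuclei allows up to 1.96% (3 nuclei), against 0.412% to 3.12% of the others (exact p = 0.143). None of these comparisons reached the smallest p of the design.

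The remaining members were then compared between astrocytes with and without a Gfap UMI at 1500 UMIs, a comparison chosen after the data had been seen. It held 829 and 1931 nuclei, and in each mouse the 2 groups had similar depth, with medians of 3262 to 4780 and 3237 to 4847.5 UMIs. Of 8 members tested 7 were higher in Gfap-detected astrocytes, beside 4.67% of 10230 genes called higher and 9.41% called in either direction (edgeR with mouse as block, n = 8 mice). The filament gene Vim led, followed by Cd44, Thbs4, Serpina3n and Osmr, and then Stat3 and Aldoc.

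Vim in Gfap-detected astrocytes ranged from 82.8 to 202 CPM with a median of 170 CPM, and in the others from 34.1 to 65.7 CPM with a median of 45.6 CPM. It was higher in 8 of 8 mice with no overlap between the groups, and the log2 difference was 1.74 (SE 0.11, adjusted p = 5.78e-14). Thbs4 ranged from 124 to 363 CPM against 54.2 to 154 CPM, higher in 7 of 8 mice and slightly lower in J20;GKO (log2 difference 1.10, SE 0.22, adjusted p = 0.0198). Osmr, the cytokine receptor, ranged from 14.4 to 53.4 CPM against 9.0 to 16.9 CPM, also higher in 7 of 8 mice (1.00, SE 0.21, adjusted p = 0.00095). Its partner Stat3 ranged from 88.4 to 169 CPM against 77.0 to 112 CPM and was higher in all 8 (0.53, SE 0.10, adjusted p = 0.00016).

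Cd44 was higher in 8 of 8 mice on 61 UMIs in each group (log2 difference 1.24, SE 0.33, adjusted p = 0.0091). Serpina3n was higher in all 8 as well, on 50 and 57 UMIs (1.07, SE 0.35, adjusted p = 0.0419). Aldoc ranged from 403 to 721 CPM against 232 to 488 CPM (0.53, SE 0.09, adjusted p = 0.00037). S100b was higher in 6 of 8 mice and missed the threshold (0.22, 95% interval -0.02 to 0.46, adjusted p = 0.275). Without WT 1 the adjusted p was 0.0669 for Cd44, 0.0518 for Osmr and 0.0565 for Thbs4. Thbs4 also missed the threshold without WT 2 (0.064) or GKO 1 (0.0655). Serpina3n missed it without WT 1 (0.0543), WT 2 (0.296), WT 3 (0.0541), GKO 1 (0.0644) or J20;WT (0.113). The log2 differences of all 8 stayed above 0 in each of these fits.

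**Figure D5:**
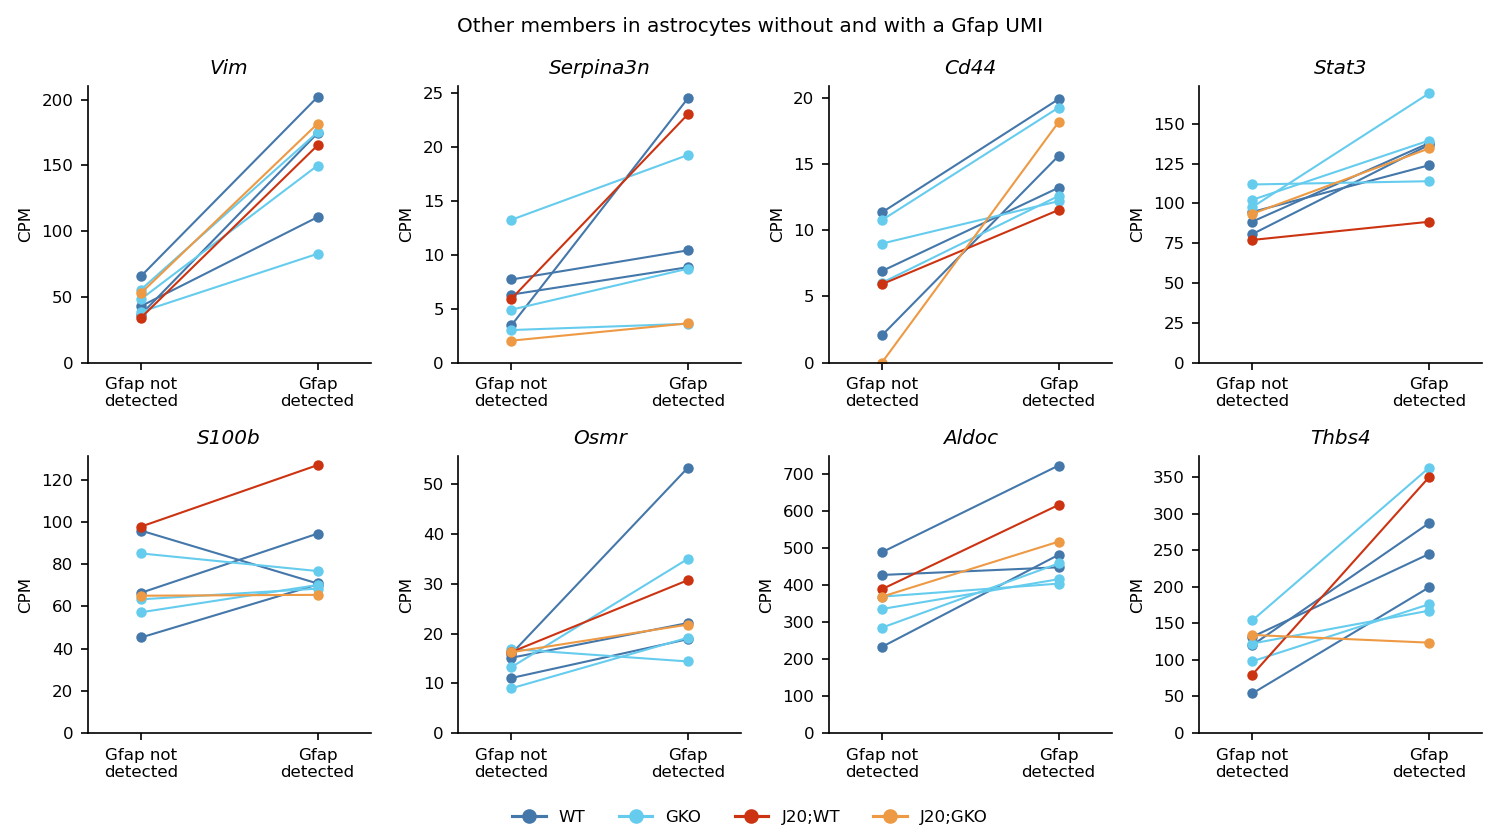
CPM (y axis, from 0) of 8 members in astrocytes without and with a Gfap UMI at 1500 UMIs (x axis), with a line joining the 2 values of each mouse, coloured by group. Vim rises in every mouse with no overlap, Stat3, Aldoc, Cd44 and Serpina3n are higher in all 8 mice, Thbs4 and Osmr in 7 of 8, and S100b in 6 of 8.

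The wider lists differed in how far they followed Gfap. Of 13 pan-reactive genes 7 could be tested and 4 were higher. These 4 were the members Vim, Serpina3n, Osmr and Cd44, so no other pan-reactive gene passed the threshold. Of 18 genes linked to amyloid models 17 could be tested and all 17 were higher, with a median log2 difference of 1.07 beside 0.01 over all genes. The gene left out is Gfap itself, which defined the split. The amyloid-model list also holds Vim, Serpina3n, Osmr and Cd44, so its count and that of the members are not independent. C4b, the complement gene that was lower in the J20 mice, ranged from 239.9 to 425 CPM against 46.7 to 169.8 CPM (1.43, SE 0.09). Id3, an inhibitor of helix-loop-helix transcription factors, rose by 1.39 and Aqp4, the water channel of astrocyte endfeet, by 1.01. The lipid carrier genes Clu (0.68) and Apoe (0.62) also rose. Of the signalling genes 5 of 13 were higher, among them the shared receptor subunit Il6st (0.77), while the kinase genes Jak1 (-0.01) and Jak2 (0.05) missed the threshold. Of the homeostatic genes 3 of 16 were higher and 1, Glt1d1, was lower (-1.43). In this list 13 genes were above 0 with a median of 0.19, and 10 had an unadjusted p under 0.05 in the edgeR test. Some of them, such as Slc1a2, Aqp4 and Gja1, are also gate markers. In the filament list 3 of 6 tested genes were higher, Vim, the linker Plec (0.80) and Nefl (0.65), and the neuronal filament gene Ina was lower (-0.79). Ggta1 (1.41) and H2-D1 (0.77) were the A1 genes that rose, of 4 tested. In the A2 list 1 of 2 tested genes, Stat3, was higher. Several genes stand in more than 1 list, Vim among them.

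Markers of other cells moved with this split in part. The 12 excitatory neuron markers were lower in Gfap-detected astrocytes of all 8 mice, with a median of 315 CPM against 566 CPM, and the 12 inhibitory neuron markers in 7 of 8 (336 against 466 CPM). OPC markers were higher in 7 of 8 mice (161 against 114 CPM). Ependymal or choroid plexus markers were higher in 6 of 8, with medians of 745 and 82.9 CPM and a highest value of 3925 CPM. Mural or fibroblast markers, the class that shares Vim and Osmr with astrocytes, were at 214 and 215 CPM, and endothelial markers at 40.0 and 43.5 CPM. The 13 astrocyte markers were at 27525 and 25312 CPM and higher in 7 of 8 mice. With a gate that asked for 5 in place of 3 detected markers, the log2 differences of all 7 members stayed past the threshold. Since the typical gated astrocyte carried 11 of the 13 markers, this limit was mild. The part of other cells' RNA in these differences was not tested.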

How the data were processed

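The study prepared nuclei from hippocampus and made droplet libraries. The authors deposited raw UMI counts per gene and barcode, made with Cell Ranger (version 3.0.2 in the file headers) on mm10, and the submitters' processing notes also name Seurat 3.0 and R 3.6.2. Whether intronic reads were counted is not given in the sources used here. The study's limits were applied: nuclei with over 5% mitochondrial UMIs, or fewer than 200 or more than 7500 genes, were removed.

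Nuclei were gated per nucleus by 10 marker lists that hold no member (at least 3 markers of the class and a score at least 1.5 times the next class), and the rest, which can include doublets, were left out, since no doublet caller was run. Free RNA was judged from excitatory neurons. Counts were summed per mouse and class and tested with edgeR 4.0.16 (TMM, filterByExpr, quasi-likelihood, Benjamini-Hochberg over all genes tested). J20 was fitted over 8 mice with a term for Gsap genotype, GKO against WT over 6, and J20;GKO against J20;WT in a fit of all 4 groups. A call needed an adjusted p under 0.05 and a log2 change over 0.3 in size, the study's thresholds. Shares were taken after thinning to 1500 UMIs and tested by exact permutation over mice (2-sided, smallest p 0.0714 for 2 against 6). Intervals of counts are exact Poisson and of shares Clopper-Pearson, and cover counting error only, and a count of 0 was taken to allow up to 3 counts. DESeq2 1.42.0 and leidenalg 0.10.2 clusters served as alternatives. The edgeR test was run on simulated counts first.

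WT and GKO mice share replicate numbers. The deviations of same-numbered astrocyte sums correlated at 0.51, 0.16 and 0.15, above 0.1 in each same-numbered pair. Pairs with unlike numbers ranged from -0.35 to 0.26, with WT 2 and GKO 3 at 0.26 and WT 3 and GKO 2 at 0.16. Only the pair of replicate 1 was thus above all unlike pairs. The mice are littermates of both sexes, no label names a shared litter, and same-numbered libraries also share the date in the deposited file names. P-values measure the spread between these mice. The members, the gene lists and the comparisons were chosen with earlier results of these data known. The text names all members, list genes past the threshold or with the lowest p, and the 3 genes most like each member over classes. App, Zbtb20, Xist, Gsap and Ttr were read as checks. Of the genes past the threshold in the Gfap split, examples from each list were chosen after their values were seen.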

Additional observations from a re-analysis of the deposited data

Results flagged for a closer look

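Dixon's test over the 6 mice without the transgene was run on 19 measures of the members and of the astrocyte share, and in 3 of them 1 mouse stood apart, where chance flags about 1 in 20. Gfap in astrocytes was at 202 CPM in GKO 3 against 355 to 429 CPM in the other 5 mice, a gap of 0.677 of the range. GKO 3 also had the largest share of astrocytes, 11.9% of nuclei against 8.46% to 9.73%. S100b was detected in 14.4% of WT 3 astrocytes at 1500 UMIs against 7.99% to 9.43% in the others.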

How the results depend on the processing

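Under all alternatives run no member passed the threshold in J20 against the rest or in GKO against WT, in astrocytes or in the other classes, and the fit with the replicate number as a block changed no call (0 genes in astrocytes, Gfap log2 fold change -0.20). The number of genes called in astrocytes for J20 was 0 and became 6 with DESeq2, 59 without a filter on low counts and 20 with the file date term, and ranged from 0 to 3 when 1 mouse was left out. The cause of these moves was not tested. In the J20 comparison the log2 fold change turned to -0.21 for S100b with the date term and to 0.53 for Serpina3n with clusters. Leaving out 1 mouse gave -0.20 to 0.49 for Gfap, -0.31 to 0.43 for Vim, -0.98 to 0.27 for Serpina3n, -0.082 to 0.54 for S100b and -0.26 to 0.046 for Thbs4. For GKO the same ranges were -0.31 to 0.13 for Gfap, -0.33 to 0.12 for Vim, -0.91 to 0.30 for Serpina3n, -0.19 to 0.53 for Cd44, -0.20 to 0.13 for S100b, -0.45 to 0.090 for Osmr and -0.18 to 0.29 for Thbs4. The J20 difference in detection ranged from -1.30 to 6.02 percentage points for Gfap, -1.11 to 6.46 for Aldoc and -2.64 to 1.53 for Stat3. Astrocytes against other nuclei kept all 8 member calls, and Serpina3n passed with clusters (adjusted p = 0.0288), with the stricter gate (0.0429) and without GKO 2, GKO 3 or J20;GKO. The split by Gfap, whose alternatives were chosen after seeing the data, called 963 genes, 2297 with clusters, 1535 when split at 3000 UMIs and 667 to 1168 without 1 mouse. With clusters Serpina3n missed the threshold (adjusted p = 0.0586) and S100b passed it (0.0249). Between J20;GKO and J20;WT, 0 genes were called, 1 by library size alone, 3 with DESeq2, 62 without a filter on low counts and 0 to 4 without 1 WT or GKO mouse (4 without WT 1, 1 without WT 2), with no member among them. Serpina3n, Cd44, Osmr and Lcn2 had at most 72 astrocyte UMIs in any mouse.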

Other observations

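In the comparison of astrocytes with and without a Gfap UMI, the largest changes past the threshold lay outside the set of 10 members. Myoc, which encodes the secreted protein myocilin, ranged from 39.7 to 503 CPM in Gfap-detected astrocytes and from 0 to 26.5 CPM in the others, and was higher in 8 of 8 mice (log2 difference 3.70, SE 0.49, edgeR adjusted p = 0.0028). Its J20 comparison could not settle a direction, with a log2 fold change of -0.10 and an SE of 1.00. Serpinf1, a secreted serpin, ranged from 15.1 to 142 CPM against 3.02 to 19.4 CPM and was higher in 7 of 8 mice (2.38, SE 0.39).

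Interferon-induced genes were also among the 12 largest changes in size. Ifitm3 ranged from 11.3 to 116 CPM against 3.62 to 21.1 CPM and was higher in all 8 mice (1.92, SE 0.21). Ifit1 (2.43, SE 0.54) and Ifit3 (2.14, SE 0.57) were higher in 6 of 8 mice and rested on 42 and 35 UMIs in Gfap-detected astrocytes. Of these Ifit1 UMIs, WT 1, WT 3 and GKO 2 held 18, 12 and 9, while WT 2, GKO 1 and J20;WT held 1 each. Of the Ifit3 UMIs, WT 1 and GKO 2 held 15 and 10. WT 1 also held 89 of the 161 Ifitm3 UMIs in these astrocytes. These genes were noticed after their values were seen, and their presence in the list was not tested for enrichment.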
